A study of Homo sapiens with 21 samples.

Results

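Amino acid transporters of the solute carrier families SLC1, SLC3, SLC6, SLC7, SLC36, SLC38 and SLC43 were followed through the differentiation of human induced pluripotent stem cells (iPSCs) into cardiomyocytes (CMs). Members were all genes whose symbol is one of these family names followed by a number. Within the families no gene was taken or left out by its values, but the families were chosen with earlier results of these data known. Of 59 protein-coding genes of this kind in GENCODE 44, 33 appear in at least 1 of the 6 deposited tables, which together name 11851 genes. The other 26, among them *SLC7A6*, *SLC38A7*, *SLC6A8* and *SLC43A3*, are in none of the tables. Transcripts with a q-value above 0.05 are left out of the tables, so for these 26 genes low expression and a level that did not pass the test cannot be told apart. Some members of these families carry other cargo, such as the serotonin transporter *SLC6A4* and the GABA transporter *SLC6A11*, and they were kept because the rule takes whole families.

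Poly-A RNA came from PGP1, an established human iPSC line. The 15 wild-type libraries cover 5 stages, with 3 libraries each. The stages are the iPSC, mesoderm (M), the cardiac mesoderm (CMes) that follows it, the cardiac progenitor (CP), and the CM. A further 6 libraries come from CMs of *UBE2B*-/- lines 1 and 2, with 3 libraries per line. UBE2B is an E2 ubiquitin-conjugating enzyme of the complex that ubiquitylates histone H2B. Both lines were made from PGP1 by CRISPR-Cas9, grown from picked colonies, and produced with different delivery methods. More cells were plated for them than for wild type, and the *UBE2B*-/- CMs that were sequenced were beating and matched in time to wild type. Replicates were plates whose differentiation was begun on separate occasions.

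The medium changed with the stage. iPSCs grew in mTeSR on Matrigel, the M to CP stages were reached in RPMI with a supplement, with and later without small molecules that act on WNT signalling, and CMs were selected with lactate in DMEM lacking glucose. Stage and medium cannot be told apart for any transporter described here. Stage markers moved with the labels. *TBXT*, the mesoderm gene encoding brachyury, went from 0.520 to 529 mean estimated counts between iPSC and M, *HAND1* from 2.89 to 3025 between M and CMes, and the cardiac troponin gene *TNNT2* from 274 to 17821 between CP and CM. None of the 5 pluripotency markers examined was called between iPSC and M, and the pluripotency gene *POU5F1* was at 10516 mean estimated counts in M and 4887 in CMes.

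Amino acid transporters sit in the plasma membrane and in the lysosomal membrane. Exchangers of the SLC7 family bring in large neutral amino acids, cystine or cationic amino acids, and several of them reach the surface only when paired with the heavy chain encoded by *SLC3A2*. SLC1 proteins carry glutamate or small neutral amino acids, SLC38 proteins carry glutamine, alanine and serine, and SLC36 proteins couple transport to protons. Dividing stem cells draw on these routes for protein, nucleotide and glutathione synthesis, whereas contracting cardiomyocytes rely largely on fatty acids and lactate for fuel. Many transporter genes, together with genes of serine and asparagine synthesis and the aminoacyl-tRNA synthetases, are known targets of the amino acid response factor ATF4.

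The tables give each transcript a change with its standard error (SE), taken from Sleuth's Wald test, and a q-value from Benjamini-Hochberg adjustment across every transcript tested. Changes are given here as log2 values, later stage minus earlier stage or knockout minus wild type, and levels as the geometric mean of normalized estimated counts over the 3 libraries of a group. Levels belong to the table of their comparison, so the same stage can carry slightly different values at neighbouring transitions. No value per library is given in the tables. The limits for a call were a q-value of 0.05 and a 1.79-fold change, and a gene takes the direction of its called transcript of highest mean. All 33 listed members were called in at least 1 comparison. Adjacent transitions share the 3 libraries of the stage between them, so opposite signs at neighbouring transitions are not independent.

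Transporters were called in both directions at the first transition, mostly lower from M to CMes, mostly higher from CMes to CP, and mostly lower again from CP to CM. Between iPSC and M, 5 of the 59 genes were higher and 6 were lower, where 3.08% of all 20020 protein-coding genes were called higher and 4.15% lower. From M to CMes, 8 were higher and 13 lower, beside 8.82% and 6.43% of protein-coding genes. At the next transition, to CP, 13 were higher and 2 lower, beside 8.16% and 6.77%. Between CP and CM, 3 were higher and 15 lower, beside 16.2% and 14.3%. The share of the 59 genes that was lower reached 22.0% from M to CMes and 25.4% from CP to CM, and the share that was higher reached 22.0% from CMes to CP. The median log2 change of the called members was -1.08, -1.32, 1.80 and -3.08 at the 4 transitions, against -0.94, 0.98, 0.92 and 0.91 for all called genes. When a t distribution on the residual degrees of freedom replaced the normal one of Sleuth's Wald test, 0, 0, 0 and 3 members were called at the 4 transitions, and 0, 0, 1 and 490 genes in all. The 3 were *SLC7A8*, *SLC7A11* and *SLC7A2*, all lower at CM.

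**Figure D1:**
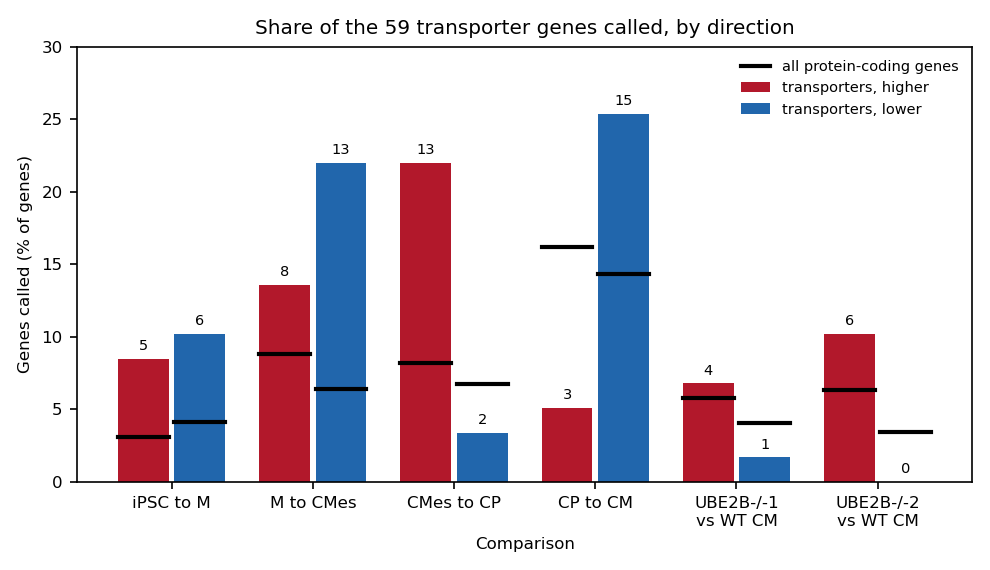
Bars show the percentage of the 59 transporter genes called higher (red) or lower (blue) in each comparison, with the number of genes above each bar, and black lines show the percentage of all protein-coding genes called in that direction. The tallest bars are the 13 genes lower from M to CMes, the 13 genes higher from CMes to CP and the 15 genes lower from CP to CM.

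**Figure D2:**
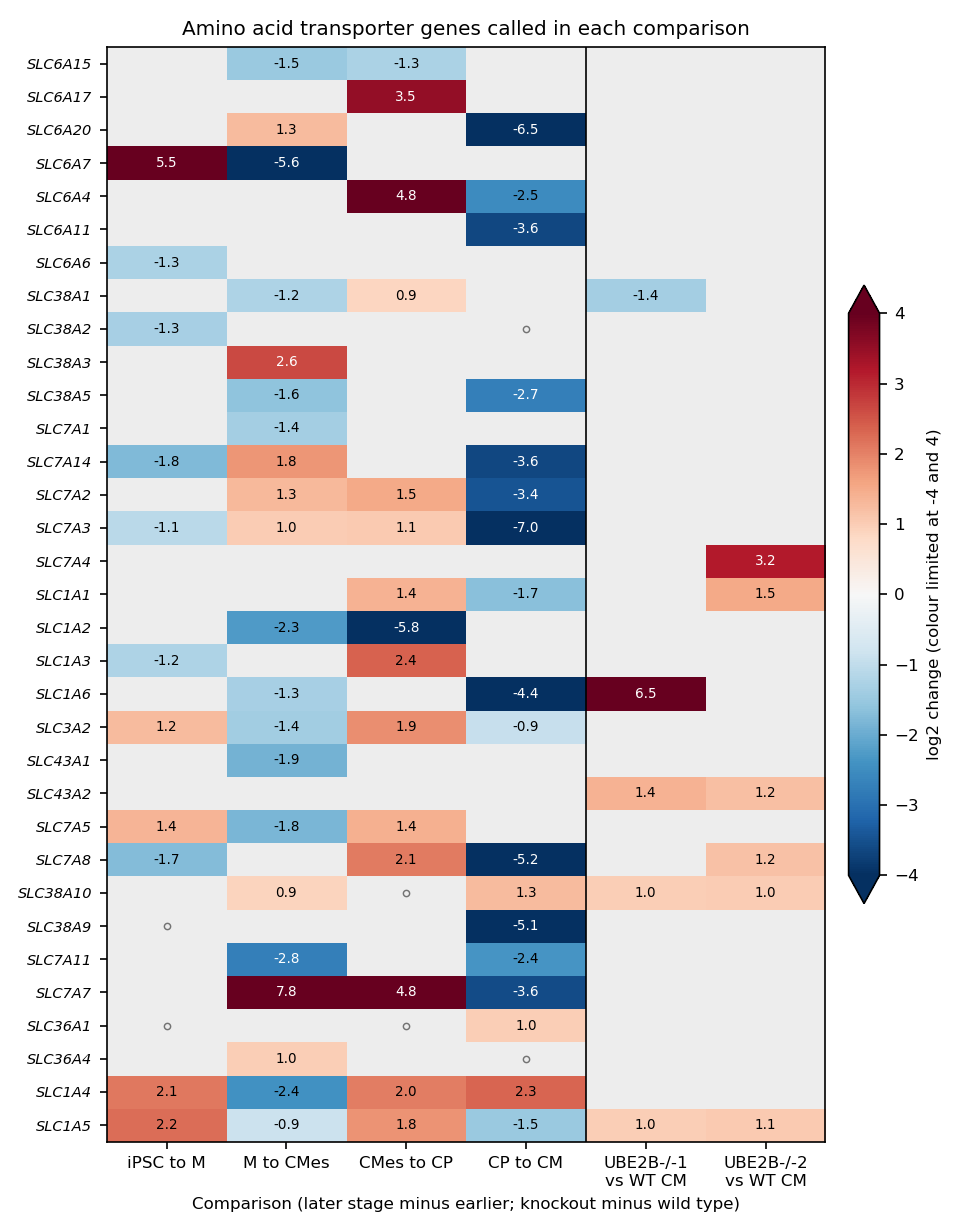
Each row is 1 of the 33 listed transporter genes and each column a comparison, with the log2 change of the gene's called transcript of highest mean printed and coloured (red higher, blue lower, colour limited at 4 in either direction). Grey cells hold no called transcript, an open circle marks a gene listed below the limit on size, and changes of genes listed at or near 0 in 1 group depend on the 0.5 added before taking logs. Of the coloured cells, 13 are blue from M to CMes, 13 red from CMes to CP and 15 blue from CP to CM.

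The large neutral amino acid exchanger *SLC7A5* and its heavy chain *SLC3A2* rose, fell and rose again together across the earlier 3 transitions. *SLC7A5* (ENSG00000103257.9, chromosome 16 of GRCh38, 87830023 to 87869507, minus strand) carries leucine, phenylalanine, tryptophan and other bulky neutral amino acids into the cell in exchange for glutamine. Its transcript ENST00000261622.5 went from 5867 to 14983 mean estimated counts between iPSC and M, a log2 change of 1.35 (SE 0.16). It fell from 16028 to 4486 between M and CMes (-1.84, SE 0.28) and rose from 4515 to 11960 between CMes and CP (1.41, SE 0.28). Neither of its listed transcripts is in the CP to CM table, and no CM level is given here. The other transcript, ENST00000565644.5, moved in the same direction at each of these transitions, with log2 changes of 1.44, -1.80 and 1.25. *SLC7A5* has processed copies elsewhere in the genome with near-identical sequence, and the authors' transcript quantification could divide reads between them.

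*SLC3A2* (ENSG00000168003.19, chromosome 11, 62856004 to 62888880, plus strand) encodes the single-pass glycoprotein that holds *SLC7A5*, *SLC7A8*, *SLC7A7* and *SLC7A11* products at the membrane. Its most abundant transcript, ENST00000338663.11, went from 1776 to 4225 mean estimated counts between iPSC and M (log2 change 1.25, SE 0.31). The same transcript fell from 4519 to 1729 between M and CMes (-1.39, SE 0.22), rose from 1739 to 6332 by CP (1.86, SE 0.19) and fell from 5607 to 2950 by CM (-0.93, SE 0.23). All 7 of its transcripts listed from M to CMes and all 8 listed from CP to CM were lower at the later stage, with log2 changes between -1.39 and -2.32 and between -0.93 and -4.03. These transcripts share most of their exons, so they are not independent measurements. Per kilobase of transcript, the ENST00000338663.11 level at CP was 3359 estimated counts, against 2625 for ENST00000261622.5 of *SLC7A5* and 2491 for ENST00000316902.12 of *SLC7A8* in the same table.

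*SLC7A8*, the second large neutral exchanger that pairs with *SLC3A2*, ran opposite to *SLC7A5* at the first transition and fell most at the last. Its transcript ENST00000316902.12 (gene on chromosome 14, 23125295 to 23183674, minus strand) fell from 6469 to 1951 mean estimated counts between iPSC and M (log2 change -1.73, SE 0.13). The M to CMes table does not list it, and the levels traced through the neighbouring tables differ between these stages by 0.23 on the log2 scale. It rose from 2471 to 10550 by CP (2.09, SE 0.23) and fell from 9342 to 261 by CM (-5.16, SE 0.14), which is 35.7-fold and has the largest absolute z, -36.01, of any member transcript in any table. Its 2 other listed transcripts also fell from CP to CM, with log2 changes of -4.69 (SE 1.75) and -4.12 (SE 0.95). Of the facilitated carriers of the same substrates, *SLC43A1* fell between M and CMes, from 700 to 188 mean estimated counts for ENST00000528450.5 (-1.89, SE 0.25), and *SLC43A2* was called only in the knockout tables.

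**Figure D3:**
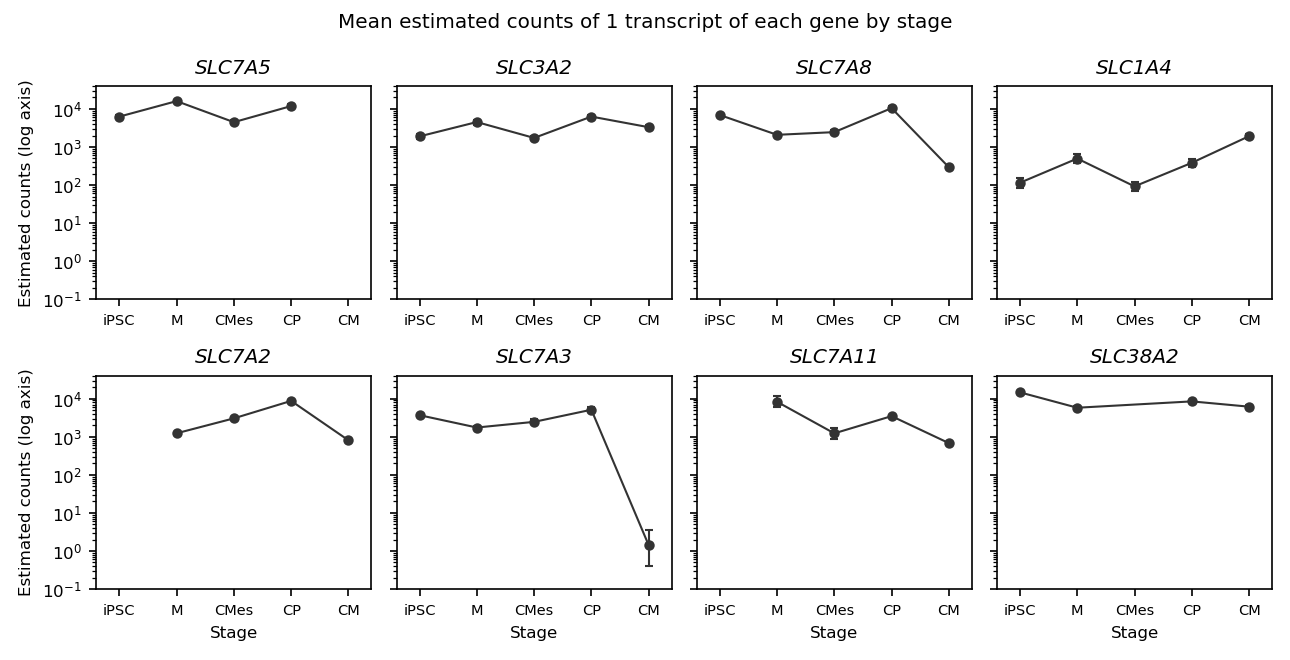
Points show the mean estimated counts (log axis) of 1 transcript each of 8 transporter genes at the stages where a table lists it, put on the scale of the M to CMes table by the offset that shared stages have between tables, and bars show 1 SE of the group mean. *SLC3A2* peaks at M and CP, and *SLC7A5* is high at M and at CP, which is its last point because no CM level is given. *SLC7A8*, *SLC7A2* and *SLC7A3* are high at CP and lower at CM, and *SLC1A4* is highest at CM. A line across a stage with no point joins the stages on either side.

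The small neutral amino acid exchangers *SLC1A5* and *SLC1A4* were both called higher at M, lower at CMes and higher at CP, and parted at the last transition. For *SLC1A5* the calls at M and CP rest on its least abundant listed transcript. *SLC1A4*, which exchanges alanine, serine, cysteine and threonine, has 1 listed transcript, ENST00000234256.4. It rose from 107 to 465 mean estimated counts between iPSC and M (log2 change 2.11, SE 0.60), fell from 497 to 92.3 by CMes (-2.42, SE 0.58) and rose from 92.8 to 386 by CP (2.05, SE 0.47). Between CP and CM it rose further, from 342 to 1715 (2.32, SE 0.29). It was 1 of 3 members higher at this transition, the others being *SLC36A1* and *SLC38A10*.

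*SLC1A5*, the main glutamine exchanger of dividing cells, has 3 listed transcripts that changed by different amounts. The least abundant, ENST00000594991.5, which begins at an internal start, went from 169 to 798 mean estimated counts between iPSC and M (log2 change 2.23, SE 0.29), from 854 to 142 by CMes (-2.59, SE 0.35) and from 142 to 499 by CP (1.80, SE 0.31). The most abundant transcript, ENST00000542575.6, is not listed from iPSC to M, fell from 5669 to 3124 between M and CMes (-0.86, SE 0.19) and was at 3144 and 4967 in CMes and CP (0.66, SE 0.14), below the limit on size. Summed over its listed transcripts, the log2 change of *SLC1A5* from CMes to CP was 0.70. By CM, ENST00000542575.6 had fallen from 4398 to 1581 (-1.48, SE 0.14), and the other 2 transcripts had fallen by 1.15 and 1.03 on the log2 scale.

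The promoter windows of these co-moving genes are shown because a composite element bound by ATF4 and C/EBP proteins is a known feature of amino acid response genes. The letters TGATGNAA were searched on both strands of the 300 bases from 250 before to 50 after each RefSeq gene start (GRCh38.p14). At least 1 window held them in 6 of 44 matched members, or 13.6%, against 4.46% of all 27305 genes. The 44 members have 66 windows. Of the 35116 windows of all genes, 3.62% held the letters. A gene with more windows has more places for a match, and the number of windows per gene was not matched. The 6 members were *SLC1A3*, *SLC1A4*, *SLC1A5*, *SLC38A1*, *SLC3A2* and *SLC7A1*. The window of *SLC7A5*, the leading large neutral exchanger, held none. The windows below run from 250 bases before to 5 after the start, 255 bases each, with the matching letters in capitals. That of *SLC7A5* is chr16:87869503-87869757 on the minus strand, that of *SLC1A5* chr19:46784810-46785064 on the minus strand, and that of *SLC1A4* chr2:64989149-64989403 on the plus strand. For each gene the window with the most matches is shown. A match was in 1 of 3 *SLC1A5* windows and in 1 of 2 *SLC1A4* windows. The *SLC1A5* window shown is at the internal start where ENST00000594991.5 begins, and the more abundant ENST00000542575.6 does not start in it. Its match starts 97 bases before that internal start. The *SLC1A4* match is on the opposite strand and begins 7 bases before the start. A match of these letters is a description and not evidence of binding.
SLC7A5: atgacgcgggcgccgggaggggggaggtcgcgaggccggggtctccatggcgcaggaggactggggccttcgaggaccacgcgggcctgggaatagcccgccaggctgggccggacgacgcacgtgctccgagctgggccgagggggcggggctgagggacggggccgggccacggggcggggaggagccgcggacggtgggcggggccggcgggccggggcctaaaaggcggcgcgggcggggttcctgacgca
SLC1A5: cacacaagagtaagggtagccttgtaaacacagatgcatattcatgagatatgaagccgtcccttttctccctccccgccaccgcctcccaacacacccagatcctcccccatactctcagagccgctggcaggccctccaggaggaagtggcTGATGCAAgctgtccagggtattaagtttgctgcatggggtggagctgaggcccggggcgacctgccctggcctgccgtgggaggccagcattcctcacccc
SLC1A4: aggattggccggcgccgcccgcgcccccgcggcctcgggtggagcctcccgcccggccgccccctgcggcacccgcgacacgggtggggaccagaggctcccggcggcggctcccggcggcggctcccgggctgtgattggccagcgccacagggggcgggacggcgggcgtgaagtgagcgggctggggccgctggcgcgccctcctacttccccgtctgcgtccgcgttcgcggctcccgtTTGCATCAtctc

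The cationic amino acid carriers *SLC7A2* and *SLC7A3* were high at CP and much lower at CM. *SLC7A2* imports arginine, lysine and ornithine. Its transcript ENST00000494857.5 rose from 1238 to 3056 mean estimated counts between M and CMes (log2 change 1.30, SE 0.22) and from 3076 to 8841 by CP (1.52, SE 0.16), then fell from 7829 to 722 by CM (-3.44, SE 0.25). *SLC7A3*, a cationic carrier abundant in pluripotent cells, fell from 3459 to 1641 between iPSC and M for ENST00000374299.8 (-1.08, SE 0.13). That transcript rose from 2487 to 5176 between CMes and CP (1.06, SE 0.31) and went from 4584 to 1.28 between CP and CM, where its log2 change of -11.33 (SE 1.52) depends on the 0.5 added before taking logs. The second *SLC7A3* transcript, ENST00000298085.4, fell from 1573 to 11.9 between CP and CM (-6.99, SE 0.96).

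The widely expressed arginine carrier *SLC7A1* was called once, falling from 7389 to 2887 mean estimated counts between M and CMes (log2 change -1.36, SE 0.32). *SLC7A14*, a lysosomal member of this branch, fell from 141 to 40.9 between iPSC and M (-1.77, SE 0.36), rose from 43.8 to 148 by CMes (1.75, SE 0.60) and fell from 176 to 13.5 between CP and CM (-3.65, SE 0.51). No cationic carrier was called higher at CM, and 3 of the 5 were lower.

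Among the other partners of *SLC3A2*, the cystine-glutamate exchanger *SLC7A11*, which supplies cysteine for glutathione, was lower at CMes and lower again at CM. ENST00000280612.9 went from 8323 to 1234 mean estimated counts between M and CMes (log2 change -2.75, SE 0.70). Traced through the neighbouring tables it was 2.83-fold higher at CP than at CMes, a change not listed and so not past the test. Between CP and CM it fell from 3116 to 609 (-2.36, SE 0.13, z -17.54). *SLC7A7*, which exports cationic amino acids at epithelial basolateral membranes, was called higher at CMes and at CP. ENST00000397528.8 was listed at 0 in M and at 110 mean estimated counts in CMes, and rose from 111 to 3143 between CMes and CP (4.82, SE 0.68). That transcript is not in the CP to CM table, where ENST00000285850.11 fell from 686 to 56.6 (-3.59, SE 1.36).

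The glutamate carriers were called in opposite directions only from CMes to CP, and their calls at the other transitions were all lower. *SLC1A3*, the glial glutamate carrier, fell from 290 to 124 mean estimated counts between iPSC and M (log2 change -1.23, SE 0.25) and rose from 169 to 869 between CMes and CP (2.36, SE 0.26). *SLC1A1*, the neuronal and epithelial carrier of glutamate and cysteine, rose from 139 to 368 between CMes and CP (1.40, SE 0.21) and fell from 326 to 103 by CM (-1.66, SE 0.24). In contrast, *SLC1A2* fell from 129 to 26.2 between M and CMes (-2.28, SE 0.78) and was at 26.3 in CMes and listed at 0 in CP. The *SLC1A6* transcript ENST00000598504.5 fell from 128 to 51.3 between M and CMes (-1.32, SE 0.33), and ENST00000221742.7 was at 15.2 in CP and 0.251 in CM.

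*SLC38A2*, the sodium-coupled carrier of alanine, serine and glutamine, had the highest level per kilobase among the listed member transcripts at the iPSC stage. It fell from 13769 to 5431 mean estimated counts between iPSC and M (log2 change -1.34, SE 0.16) and was at 7598 and 5518 in CP and CM, a change of -0.46 (SE 0.16) that is below the limit on size. The related glutamine carrier *SLC38A1* is represented by minor transcripts among the calls. ENST00000552197.5 fell from 159 to 66.9 between M and CMes (-1.24, SE 0.29) and rose from 67.3 to 205 by CP (1.60, SE 0.35). ENST00000546893.5, the called transcript of highest mean from CMes to CP, rose from 314 to 575 (0.87, SE 0.22). The abundant ENST00000398637.9 was at 8470 in CMes and 14074 in CP (0.73, SE 0.20), below the limit. *SLC38A5*, a system N carrier, fell from 485 to 159 between M and CMes (-1.60, SE 0.29) and from 94.4 to 13.8 between CP and CM (-2.73, SE 0.89). *SLC38A3*, also of system N, rose from 12.1 to 77.6 between M and CMes (2.63, SE 0.70).

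At the transitions, the called changes of SLC36 members and of *SLC38A10* were all higher, and the call of *SLC38A9* was lower, for a transcript at a low level. *SLC38A10*, a carrier of glutamine and related amino acids that is less well characterised, rose from 338 to 622 mean estimated counts between M and CMes for ENST00000374759.8 (log2 change 0.88, SE 0.26). It was at 625 and 407 in CMes and CP, below the limit on size, and rose from 360 to 878 by CM (1.28, SE 0.28). All 4 of its transcripts listed between CP and CM were higher at CM, with log2 changes from 1.28 to 1.87. *SLC36A1*, the proton-coupled exporter of the lysosome, rose from 236 to 469 between CP and CM (0.99, SE 0.23). *SLC36A4* rose from 475 to 928 between M and CMes (0.97, SE 0.15) and was at 819 and 535 in CP and CM (-0.61, SE 0.15), below the limit on size. The product of *SLC38A9* senses arginine at the lysosome for mTORC1. Its called transcript, which retains an intron, was at 16.4 in CP and listed at 0 in CM. The coding transcript ENST00000396865.7 went from 727 to 413 between iPSC and M (-0.82, SE 0.24), below the limit on size.

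SLC6 family calls were mostly of transcripts at low levels. The most abundant was ENST00000649500.1 of *SLC6A6*, the taurine carrier gene. This transcript, annotated as subject to nonsense-mediated decay and so not coding for the full carrier, is the one *SLC6A6* transcript listed, and it fell from 6144 to 2562 mean estimated counts between iPSC and M (log2 change -1.26, SE 0.21). *SLC6A15*, a carrier of branched-chain amino acids and proline, fell from 306 to 108 between M and CMes (-1.50, SE 0.22) and from 109 to 44.8 by CP (-1.27, SE 0.32). *SLC6A17*, a vesicular carrier of neutral amino acids, rose from 6.94 to 83.8 between CMes and CP (3.50, SE 0.65). The proline carrier *SLC6A7* was listed at 0 in iPSC and in CMes and was at 22.7 or 24.3 in M. The 4 listed transcripts of *SLC6A4* were at 3.56 or below in CMes and between 112 and 194 in CP, and the 3 of them in the CP to CM table were at 29.3 or below in CM. *SLC6A20*, which carries proline and other imino acids, was the only member with calls in both directions in 1 comparison. Its transcript ENST00000353278.8 was at 105 in CP and 0.636 in CM, and ENST00000358525.9 was listed at 0 in CP and was at 69.1 in CM.

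Genes of amino acid synthesis and use were counted from companion lists to place the transporters. These lists, too, were chosen with earlier results of these data known. Of 8 genes of serine, glycine and asparagine synthesis, 5 were higher at M, 7 lower at CMes, 4 higher at CP and 7 lower at CM, with none called the other way at any of the 4 transitions. In these directions 3.08%, 6.43%, 8.16% and 14.3% of protein-coding genes were called, and 4.15%, 8.82%, 6.77% and 16.2% in the opposite directions. These percentages also stand beside the counts of the other lists and of the markers at these transitions. *ASNS*, the asparagine synthetase, went from 1096 to 3163 mean estimated counts between iPSC and M (log2 change 1.53, SE 0.18) and from 3384 to 1172 between M and CMes (-1.53, SE 0.18). *PHGDH*, which starts serine synthesis, rose from 3119 to 10171 between CMes and CP (1.71, SE 0.12) and fell from 9007 to 1648 by CM (-2.45, SE 0.16). Of 13 cytosolic aminoacyl-tRNA synthetases, 3 were higher at M, 12 lower at CMes and 2 higher at CP, and from CP to CM 1 was higher and 3 lower. *SARS1*, the seryl-tRNA synthetase, went from 2928 to 5713 between iPSC and M (0.96, SE 0.19) and from 6112 to 2646 between M and CMes (-1.21, SE 0.16).

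The amino acid response list, 14 genes including *ATF4* and its targets, was called mainly at CP. From CMes to CP 6 were higher and 0 lower, beside 1 higher and 1 lower at the first transition, 0 and 2 from M to CMes, and 1 and 3 from CP to CM. The stress-induced factor *DDIT3* rose from 92.9 to 443 mean estimated counts between CMes and CP (log2 change 2.25, SE 0.25), and *DDIT4*, an inhibitor of mTORC1, from 672 to 3102 (2.21, SE 0.34). *ATF4* itself was called once among the transitions, falling from 192 to 105 between CP and CM for ENST00000337304.2 (-0.87, SE 0.30). Of 21 genes of lysosomal amino acid sensing, 5 were higher and 3 lower from CP to CM, beside 16.2% and 14.3% of protein-coding genes, shares near those of the list, and at most 3 were called in either direction at each earlier transition.

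**Figure D4:**
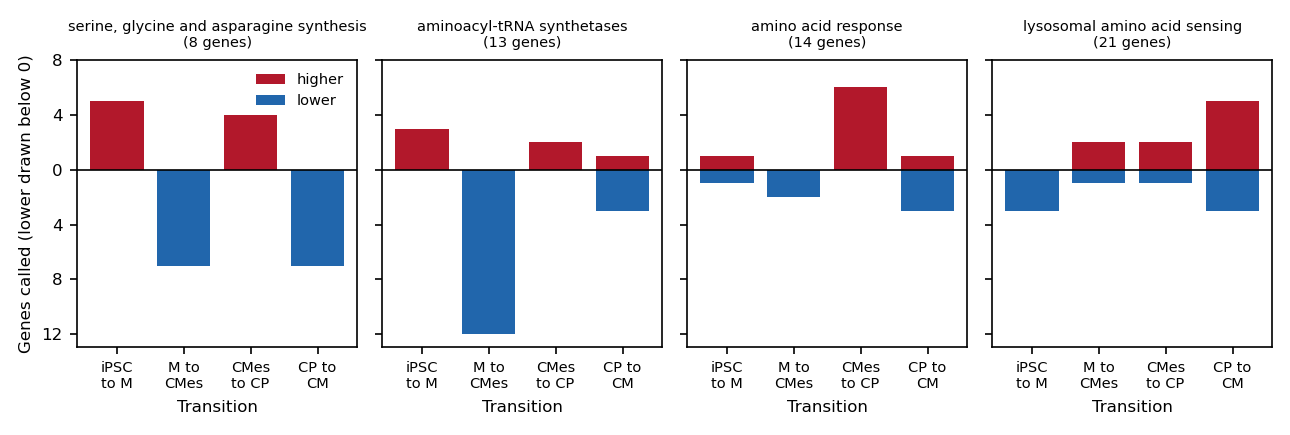
Bars show how many genes of each companion list were called higher (red, above 0) or lower (blue, below 0) at each stage transition. The serine, glycine and asparagine list has 5, 7, 4 and 7 called genes in alternating directions, and the aminoacyl-tRNA synthetases have 12 of 13 genes lower from M to CMes.

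Markers of other cell types also moved at CP and CM. In bulk RNA, fewer cells of a type and less RNA per cell cannot be told apart. Of 6 endoderm and epithelial markers, 3 were higher at CP and 4 were lower at CM. *AFP*, of visceral endoderm and liver, went from 0.608 to 1810 mean estimated counts between CMes and CP, and *APOA1* from 68.0 to 4970. At CM the directions of *APOA1* (325 to 33.5) and *KRT18* (173 to 86.5) come from other, less abundant transcripts than those at CP, where *KRT18* was at 39436. Of 6 mesenchymal markers, 5 were higher at CP, and the collagen gene *COL3A1* went from 51.9 to 29256 mean estimated counts. From CP to CM, 4 of the 6 were lower, with *COL3A1* falling from 25907 to 6406, and 2 were higher, *COL1A1* by 1.57 (a minor transcript) and *POSTN* by 1.88 on the log2 scale. Of 7 cardiomyocyte markers, 6 were higher at CP and 7 at CM. *SLC1A1*, *SLC1A5*, *SLC3A2*, *SLC6A4*, *SLC7A2*, *SLC7A3*, *SLC7A7* and *SLC7A8* were called higher at CP and lower at CM in the same libraries as these markers, and the part of these cells in the transporter changes was not tested. No endothelial marker was called from CMes to CP, and *KDR* and *TEK* were lower at CM. Other lists went the other way at CM. Of 4 smooth muscle markers, 2 were higher at CP and 4 at CM, with *CNN1* rising from 720 to 6504 between CP and CM. Of 5 neural markers, *STMN2* and *TUBB3* were lower at CP and higher at CM.

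In CMs of the *UBE2B*-/- lines the targeted gene was barely listed. One *UBE2B* transcript, ENST00000499038.2, fell in line 1 (log2 change -1.91, SE 0.53), and no *UBE2B* transcript is listed for line 2. The guides were placed to mutate the gene near its transcription start, and a mutated allele can still be transcribed, so the level of this RNA does not check the genotype. Both lines share the 3 wild-type libraries and 1 fit of 9 libraries, and a gene called in both is not supported by independent controls.

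Few transporters changed in the *UBE2B*-/- CMs, and most of those called were higher. In line 1, 4 of the 59 genes were higher and 1 lower, beside 5.76% and 4.02% of protein-coding genes. In line 2, 6 were higher and 0 lower, beside 6.33% and 3.42%. The same transcript was called higher in both lines for 3 genes, *SLC38A10*, *SLC43A2* and *SLC1A5*, and called lower in both for 0, beside 4.17% and 2.09% of protein-coding genes. These counts are close to the background. With no limit on size the count for both lines did not change, and at a q-value of at most 0.01 only *SLC38A10* remained. None was called with a t distribution in place of the normal distribution.

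*SLC38A10* (ENST00000374759.8) had 1013 mean estimated counts in the wild type, against 1988 in line 1 and 2045 in line 2, and the mean log2 change of the lines was 0.99 (SE 0.20). *SLC43A2*, a carrier of large neutral amino acids that works without a heavy chain, was at 105, 276 and 242 (ENST00000613070.4, mean log2 change 1.30, SE 0.32). *SLC1A5* was at 1825, 3610 and 3809 (ENST00000542575.6, mean log2 change 1.02, SE 0.28). Tested against each other, the lines gave a q-value of 1.0 for each of these genes (Wald test of the difference in Sleuth's fit). The 95% interval of line 2 minus line 1 was -0.42 to 0.50 for *SLC38A10*, -0.91 to 0.53 for *SLC43A2* and -0.55 to 0.70 for *SLC1A5*, all on the log2 scale.

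Members listed for 1 line were not shown to differ between the lines. *SLC1A1* rose in line 2 (log2 change 1.52, SE 0.30), and the change in line 1, solved from the variance columns of the shared fit, was 0.86. The difference of 0.66 had an unadjusted p of 0.0251 and a Benjamini-Hochberg adjusted p of 0.823 by the Wald test of Sleuth's fit. The solved levels of *SLC1A1* were 119 mean estimated counts for wild type, against 215 for line 1 and 341 for line 2. *SLC7A8* rose in line 2 (1.17, SE 0.38) and had a solved change of 0.80 in line 1, with levels of 302 for wild type, 525 for line 1 and 681 for line 2. *SLC1A6* was called higher in line 1. Its solved levels were 0.28 for wild type against 68.8 for line 1 and 49.9 for line 2, the solution nearest to its CM level in the CP to CM table. *SLC7A4*, a relative of the cationic carriers without established transport activity, rose in line 2 (3.17, SE 0.88), and 2 minor *SLC38A1* transcripts were called lower in line 1, with log2 changes of -1.35 (SE 0.39) and -1.38 (SE 0.42). The abundant *SLC38A1* transcript ENST00000398637.9 was at a change of -0.82 (SE 0.22) in line 1, below the limit on size, and the listed transcripts summed to -0.84. For *SLC7A4* and *SLC38A1* the other line has 2 possible values, all of the same sign as the listed change. *SLC7A5*, *SLC3A2*, *SLC7A2*, *SLC7A3* and *SLC7A11* are in neither knockout table.

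**Figure D5:**
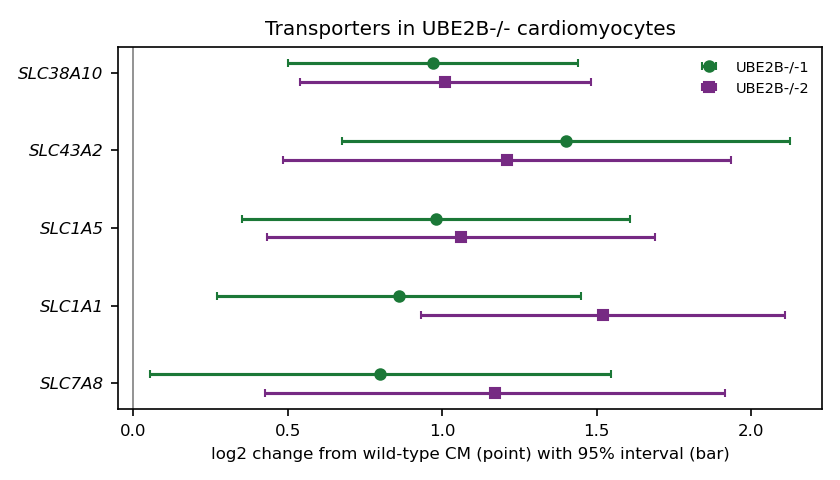
Points show the log2 change of 5 transporter transcripts in *UBE2B*-/- line 1 (green circles) and line 2 (purple squares) against wild-type CMs, and bars show the 95% interval from the SE of the shared fit. The line 1 values of *SLC1A1* (0.86) and *SLC7A8* (0.80) were solved from the variance columns and are not listed in the tables. The intervals of the lines overlap for every gene shown, but both hold the error of the shared wild-type libraries, so overlap does not test the difference between the lines.

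Cell type markers also differed in the knockout CMs. In both lines 4.17% of protein-coding genes were called higher and 2.09% lower, and 6.33% were higher in line 2. Of 7 cardiomyocyte markers, 4 were lower in both lines, with *TTN*, the gene of the giant sarcomere protein titin, at 143479 mean estimated counts in the wild type but 15994 in line 1 and 21456 in line 2. Of 6 mesenchymal markers, *COL3A1* was higher in both lines, at 7392, 84231 and 207028, and line 2 had 4 of the 6 higher. Among 5 progenitor markers, only *GATA4* was higher in both lines. The same held for only *KRT18* among 6 endoderm and epithelial markers and only *DCX* among 5 neural markers. The *KRT18* call rests on a less abundant transcript, ENST00000549078.5, with a wild-type level of 99.8 against 224 (line 1) and 276 (line 2). *DCX* was listed at 0 for wild type and reached 48.1 and 86.5. *EPCAM*, an epithelial marker, was lower in line 2 (log2 change -5.64, SE 1.78). The smooth muscle gene *CNN1*, from a list of 4, was lower in both lines. No pluripotency or mesoderm marker was called in either line. The part of these cell types in the transporter changes was not tested. Of the 14 amino acid response genes, 2 were higher and 1 lower in both lines. The transcription factor gene *CEBPB* was at 424 mean estimated counts in the wild type, 782 in line 1 and 790 in line 2, the kinase gene *EIF2AK3* at 214, 522 and 610, and *CEBPG*, a partner of C/EBP proteins, at 1562, 853 and 767. Of the 13 aminoacyl-tRNA synthetases, 0 were higher and 2 lower in both.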

How the data were processed

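Poly-A RNA-seq of 21 libraries was analysed, 3 in each of 7 groups, with groups taken from the sample labels. Reads were trimmed (FASTX-Toolkit) and assigned to hg38 transcripts (Kallisto) by the authors, who then fitted the transcripts in Sleuth. Their 6 deposited tables hold, per transcript, a p-value and q-value of the Wald test, the change, its SE and the mean on the natural log scale of normalized estimated counts plus 0.5, and variance terms, which are scores that the authors' fit computed and that can be negative. These columns are the authors' own comparisons. There are 0 columns of values per library, so depth is unknown here, precision is the SE of the fit, and p-values measure the spread between plates started at separate times.

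The SE, z and p-value were recomputed from the change and the variance columns. The number of transcripts tested, 65457 to 71328, follows from each q-value, its rank and its p-value. Group means came from the mean and the change. Log2 changes are the natural-log change divided by the natural log of 2. The limit on size was a natural-log change of 0.585, where the study's sheets start. Tables were put on 1 scale by the offset of their shared stage, whose SD was at most 0.00102 on the natural-log scale. For transcripts listed for 1 knockout line, the variance columns allow 2 solutions for the other line, and the wild-type mean of the CP to CM table decided between them where it could. Of 64 member transcripts, 63 were matched by identifier to GENCODE 44 for lengths. The steps were tested on simulated data.

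Every member with a called transcript could be named. Those with the largest absolute z in each comparison, those called in both directions or in both lines, and *SLC7A5*, *SLC7A8* and *SLC3A2* are always described. The members and the companion and marker lists were chosen with earlier results of these data known. Analyses used Python 3.11.15, pandas 2.3.3, numpy 2.4.6, scipy 1.17.1 and matplotlib 3.10.9. Alternatives were other limits on size and q-value, a t distribution, each transcript's own variance, a minimum of 10 estimated counts and other ways to choose the transcript that speaks for a gene.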

Additional observations from a re-analysis of the deposited data

How the results depend on the processing

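With a t distribution on the residual degrees of freedom, the number of members called was 3 between CP and CM, 0 at each transition before it and 0 in line 1, line 2 and both lines. This setting kept the SE of Sleuth's fit, with its shared variance, and changed only the distribution. It called 0, 0, 1 and 490 of all genes at the transitions. At a q-value of at most 0.01, 2 members were called in line 1, 2 in line 2 and 1 in both lines. Of the 58 values that these counts took under all settings, 48 stayed within 1.5 times the count in the report. Some of the 48 could not move and say nothing about stability. Each transcript's own variance is never above the one Sleuth used, so no listed call could be lost with it. The transcript with the largest absolute z was picked among called ones, so its count was fixed. The number of members that differed between the lines was 0 with every adjustment tried. The adjustment with the solved transcripts was chosen after seeing the data. *SLC6A20* from CP to CM turned to 7.12 on the log2 scale when the transcript with the largest absolute z spoke for it, since its listed transcripts move in opposite directions. Of 52 values for single genes with another transcript or the sum of transcripts speaking for the gene, that 1 reversed, and in 9 the summed change kept its direction and moved by more than 1 SE. No paired analysis was possible because the tables hold no value per library, and for the same reason leaving out each replicate in turn was not run. Depth per library is unknown, and transcripts that missed the q-value limit have no value at all.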

Other observations

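Other lists of amino acid metabolism were read against the protein-coding genes, of which 16.2% were called higher and 14.3% lower from CP to CM. Of 9 genes of proline and glutamate synthesis, 2 were higher and 0 lower from CMes to CP, and 1 was higher and 5 lower from CP to CM. A list of 14 other transporters holds carriers mostly of amino acids and peptides, and also the glucose carrier *SLC2A1*. Between iPSC and M, 1 was higher and 1 lower, beside 3.08% and 4.15% of protein-coding genes. From M to CMes, 1 was higher and 4 lower, beside 8.82% and 6.43%. From CMes to CP, 0 were higher and 3 lower, beside 8.16% and 6.77%. From CP to CM, 5 were higher and 0 lower. The 5 were *SLC15A2*, a peptide carrier, *SLC17A5*, the lysosomal sialic acid exporter, *SLC25A12* and *SLC25A13*, the mitochondrial aspartate-glutamate exchangers, and *SLC47A1*, an exporter of organic cations. Of 6 genes of branched-chain amino acid use, only *BCAT1*, the cytosolic aminotransferase, was called among the transitions, and it was lower at CMes and at CM. Of 6 glutathione synthesis genes, 1 was higher and 2 lower from M to CMes and 0 higher and 1 lower from CP to CM. Of 5 taurine and creatine genes, 2 were higher and 2 lower from CP to CM.

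In the *UBE2B*-/- CMs, *SLC25A22*, the mitochondrial glutamate carrier, and *SLC16A10*, a carrier of aromatic amino acids (ENST00000612036.4, listed at 0 in wild type and at 14.3 and 16.1 mean estimated counts in the lines), were called higher in both lines, and *SLC25A12* lower in both. Of the lysosomal sensing genes, 1 transcript each of the GTPase genes *RHEB* (ENST00000472642.5) and *RRAGD* (ENST00000359203.3) was lower in both lines. The *RRAGD* transcript that is most abundant in the CP to CM table, ENST00000369415.8, had no call in either line, and the arginine sensor *CASTOR1* was higher in both.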
